A study of Mus musculus with 16 samples.

Results

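The genes described here are the mouse genes whose symbol is Mrpl or Mrps followed by a digit, the nuclear genes named for the proteins of the mitochondrial ribosome. The name alone decided which genes belong, while the family itself was picked with earlier results of these data known. There are 78 of them among the 21936 genes of the deposited tables, 49 named Mrpl and 29 named Mrps. They were measured by poly(A) RNA-seq in osteoclasts, the bone-resorbing cells, grown from CD11b+ bone marrow cells of C57BL/6J mice. M-CSF was given first, RANKL was then added, and RNA was taken when mature osteoclasts first appeared, which was on day 3 to 5. The 16 libraries form 4 genotypes of 4 libraries each. The first is wild type (WT). The second lacks Ptprc, the gene of the phosphatase CD45 (Ptprc KO). The third carries, as a knock-in, FLT3 ITD, an internal tandem duplication that makes the receptor kinase FLT3 signal without ligand (FLT3 ITD). The last, FLT3 ITD Ptprc KO, has both changes and is called the double mutant below. All groups share the strain, the sort and the cytokines. The growth protocol common to all labels also mentions AC220, a FLT3 inhibitor, for inhibition experiments, and no library is labelled as treated with it. The design text gives a larger total of samples than its 4 groups add up to. The zygosity of the knock-in, the age of the mice and the day of each culture are not given in the sources used here. Separate mice for each replicate are not stated in the labels, so p-values measure the spread between these libraries, which may be partly technical.

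Mitochondria make a few subunits of the respiratory chain on ribosomes of their own. The RNAs of these ribosomes are encoded in mitochondrial DNA, while all their proteins are encoded in the nucleus, made in the cytosol and imported. The small subunit binds the mRNA and decodes it, and the large subunit joins the amino acids and releases the chain at the inner membrane. About the osteoclast it is known that mitochondria multiply as it matures, a step in which the coactivator PGC-1beta, the product of Ppargc1b, takes part. The symbols do not match the subunits fully: Mrps30 and Mrps18a sit in the large subunit, and the product of Mrps36 belongs to the 2-oxoglutarate dehydrogenase complex, an enzyme of the citric acid cycle. By subunit, 51 of the 78 genes belong to the large one, 26 to the small one and 1, Mrps36, to neither.

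The members lay on 17 chromosomes (GENCODE vM21, GRCm38), with 11 on chromosome 11, 8 on chromosome 17 and 7 on chromosome 6. A divergent partner, meaning a gene on the other strand whose start lies within 1000 bases of the member's start, was annotated for 32 of the 77 members tested (41.6%) and for 16.5% of all genes tested. Mrpl46 and Mrps11 are partners of each other, and Mrps12, the decoding-centre protein S12, starts beside Sars2, the mitochondrial seryl-tRNA synthetase. The partners of Mrpl36 and Mrpl47 are Ndufs6 and Ndufb5, both of which encode complex I subunits, while the start of Twnk, the helicase that copies mitochondrial DNA, lies 779 bases inside Mrpl43.

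A promoter window of RefSeq (GRCm38.p6), running from 250 bases before to 50 bases after a gene's start, was available for 69 of the 78 members. These windows were searched on both strands for short motifs of factors known for mitochondrial genes, and a match is a description of letters, not of binding. The ETS motif CCGGAAG, the kind GABPA binds, was in the windows of 26 members (37.7%), against 20.6% of the genes tested and 9.93% of all genes with a window. The NRF1 core GCATGCGC was in 8 members (11.6%), against 6.11% of genes tested and 3.05% of all. The YY1 motif AAGATGGC was in 12 members (17.4%), against 5.41% and 3.19%. By contrast, the CCAAT box CCAAT was in 39.1% of members and 43.1% of genes tested, and the E-box CACGTG in 7.25% and 11.8%. The half-site AAGGTCA of the ERR receptors was in 5.8% of members and 3.91% of genes tested. At least 1 of the ETS, NRF1 and YY1 motifs was found in 38 members (55.1%) and in 29.0% of genes tested.

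The stretches below lie before the start of 5 members and touch no exon of GENCODE vM21. They were chosen to show an ETS and an NRF1 match in 1 promoter (Mrpl22), a palindromic NRF1 core (Mrpl9), a pair of ETS matches in 1 promoter (Mrpl43), a single ETS match (Mrpl52), and no match of these 3 motifs in the member with the lowest log2 fold change between the double mutant and FLT3 ITD (Mrpl41). Each is written 5′ to 3′ on the strand of the gene, with motif letters in capitals. The windows are chr11:58171514-58171660 on the plus strand, chr3:94443186-94443317 on the plus strand, chr19:45006443-45006557 on the minus strand, chr14:54426759-54426908 on the plus strand and chr2:24975099-24975248 on the minus strand, all in GRCm38.p6. In the palindrome of Mrpl9 the match on one strand overlaps that on the other.
Mrpl22: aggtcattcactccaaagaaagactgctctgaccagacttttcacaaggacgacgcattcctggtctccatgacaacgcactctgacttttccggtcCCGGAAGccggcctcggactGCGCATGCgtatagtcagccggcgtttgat
Mrpl9: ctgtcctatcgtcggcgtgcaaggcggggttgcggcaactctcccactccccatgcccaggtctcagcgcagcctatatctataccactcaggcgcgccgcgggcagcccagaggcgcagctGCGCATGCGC
Mrpl43: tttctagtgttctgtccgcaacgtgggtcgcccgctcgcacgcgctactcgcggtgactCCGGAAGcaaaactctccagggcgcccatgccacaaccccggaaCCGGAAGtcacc
Mrpl52: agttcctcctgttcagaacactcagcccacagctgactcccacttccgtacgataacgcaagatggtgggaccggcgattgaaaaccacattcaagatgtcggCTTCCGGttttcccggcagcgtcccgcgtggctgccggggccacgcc
Mrpl41: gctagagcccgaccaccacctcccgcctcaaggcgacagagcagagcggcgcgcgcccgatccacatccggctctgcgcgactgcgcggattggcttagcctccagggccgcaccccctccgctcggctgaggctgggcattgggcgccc

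For Ptprc, Flt3 and sums of markers, CPM (counts after scaling every library to the same total) are relative to the plain library total, and for all other values to the total scaled by TMM factors. Total counts were 24211724 to 35773313 per library, of which the members held 66173 to 160685. Ptprc had 434.0 to 512 CPM in WT and 212 to 490.0 in FLT3 ITD, against 29.3 to 46.6 in Ptprc KO and 55.3 to 80.2 in the double mutant, so the labels of the deletion hold in all 16 libraries, while Flt3 was under 2 CPM throughout. FLT3 ITD replicate 2 stood apart. Across genes, which are not independent, its deviation from the mean level fell with gene length at a Spearman rho of -0.46, against -0.18 to 0.18 elsewhere. FLT3 ITD replicates 1 and 3 lay closest to each other, with a mean chi-square per gene of 2.68, above the value of 1 that sampling noise gives but below the 12.5 of the next closest pair. Osteoclast markers also varied within groups, with the sum of 10 genes such as Ctsk and Acp5 at 29500 to 40100 CPM in WT, 24500 to 60700 in Ptprc KO, 14300 to 50800 in FLT3 ITD and 8520 to 47600 in the double mutant, and none was at 0.

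Levels between genes are compared in TPM, which divides by gene length. Mrpl12, whose product forms the stalk that recruits translation factors, had the highest mean over the 16 libraries, 306 TPM ± 93.7 (SD, n = 16). Next came Mrpl34 with 202 TPM ± 66.9, Mrpl52 with 189 ± 58.5, Mrpl18 with 167 ± 42.9 and Mrpl28 with 149 ± 50.6. From Mrpl34 down, the SDs are wider than the steps between neighbours in the order. All genes were measured in the same libraries, between which the members moved together. These SDs therefore do not measure the spread of a difference between genes, and such differences were not tested. Mrpl43, Mrpl2, Mrpl41, Mrps23 and Mrpl20 completed the 10 highest, at 141 to 147 TPM. The 30 large-subunit proteins with a bacterial homologue had a median of 63.0 TPM and the 21 found only in mitochondria 65.8 TPM. In the small subunit the medians were 70.0 TPM for 16 conserved proteins and 31.4 TPM for 10 mitochondria-specific ones.

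At the low end stood Mrps10 with 13.6 TPM, Mrpl48 with 14.9, Mrpl33 with 16.7 and Mrpl23, a protein of the exit tunnel, with 3.99 TPM. The length that the TPM divides by is the union of all annotated exons. It was 7.94 times the length of the coding transcript for Mrps10, 6.63 times for Mrpl23 and 3.36 times for Mrpl33, and more than 2 times for 19 members, which lowers their TPM but not a comparison of 1 gene between genotypes. Mrpl53 had 0 counts in every library. Of its exon bases 88.0% are shared, on the same strand, with Gm42688, which had 1356 counts over the 16 libraries, so its level could not be measured in these tables. More than 50% of the exon bases are also shared with another gene for Mrps34, on both strands, and for Mrps25, on the opposite strand of Nr2c2. The sources used here do not say whether counting used strand, and values of these 2 genes are uncertain.

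The members moved together from library to library. The first principal component held 83.2% of the variance of log2 CPM of the 77 members tested, and 75.4% without FLT3 ITD replicate 2. Their mean log2 CPM was 5.23, 5.43, 5.12 and 5.26 in WT replicates 1 to 4, 5.35, 5.45, 5.57 and 5.19 in Ptprc KO, 5.38, 6.30, 5.40 and 5.19 in FLT3 ITD, and 5.14, 4.75, 5.18 and 5.24 in the double mutant. The WT, Ptprc KO and double mutant ranges overlap, and 1 library, FLT3 ITD replicate 2, lies far above all others. That library was the highest of 16 for 76 of the 77 members by CPM and for 65 by TPM. Double mutant replicate 2 was the lowest for 66 members by CPM and for 72 by TPM. Mean log2 CPM of the osteoclast markers was 7.70, 7.77, 9.89 and 7.59 in double mutant replicates 1 to 4, and their part in the members' levels was not tested. In bulk RNA, fewer cells of a type and less RNA per cell cannot be told apart.

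**Figure D1:**
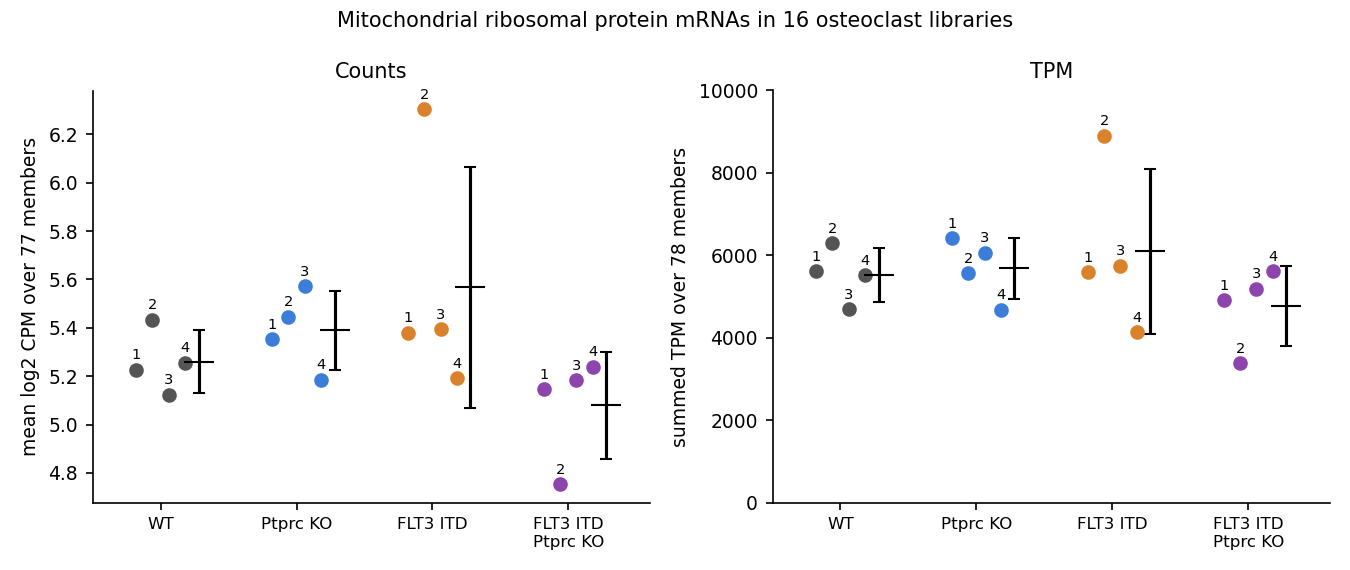
Level of the mitochondrial ribosomal protein genes in each library by genotype: mean log2 CPM over 77 members (left, axis not from 0) and summed TPM over 78 members (right). Points carry the replicate number, and bars are group mean and SD of 4 libraries; FLT3 ITD replicate 2 is the highest and double mutant replicate 2 the lowest on both scales.

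Summed over the 78 members, TPM reached 5532 ± 658 in WT, 5683 ± 748 in Ptprc KO, 6097 ± 2006 for FLT3 ITD, and 4776 ± 976 (SD, n = 4 each) in the double mutant. The FLT3 ITD libraries were at 5594, 8902, 5754 and 4139, and those of the double mutant at 4915, 3378, 5194 and 5617. The 4 groups overlap. The ratio of mean sums to WT was 1.102 for FLT3 ITD, 1.03 for Ptprc KO and 0.86 for the double mutant, and without FLT3 ITD replicate 2 the first of these was 0.93. The balance of the subunits varied little: mean log2 CPM of the large subunit exceeded that of the small one by 0.22 to 0.31 in all 16 libraries.

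**Figure D2:**
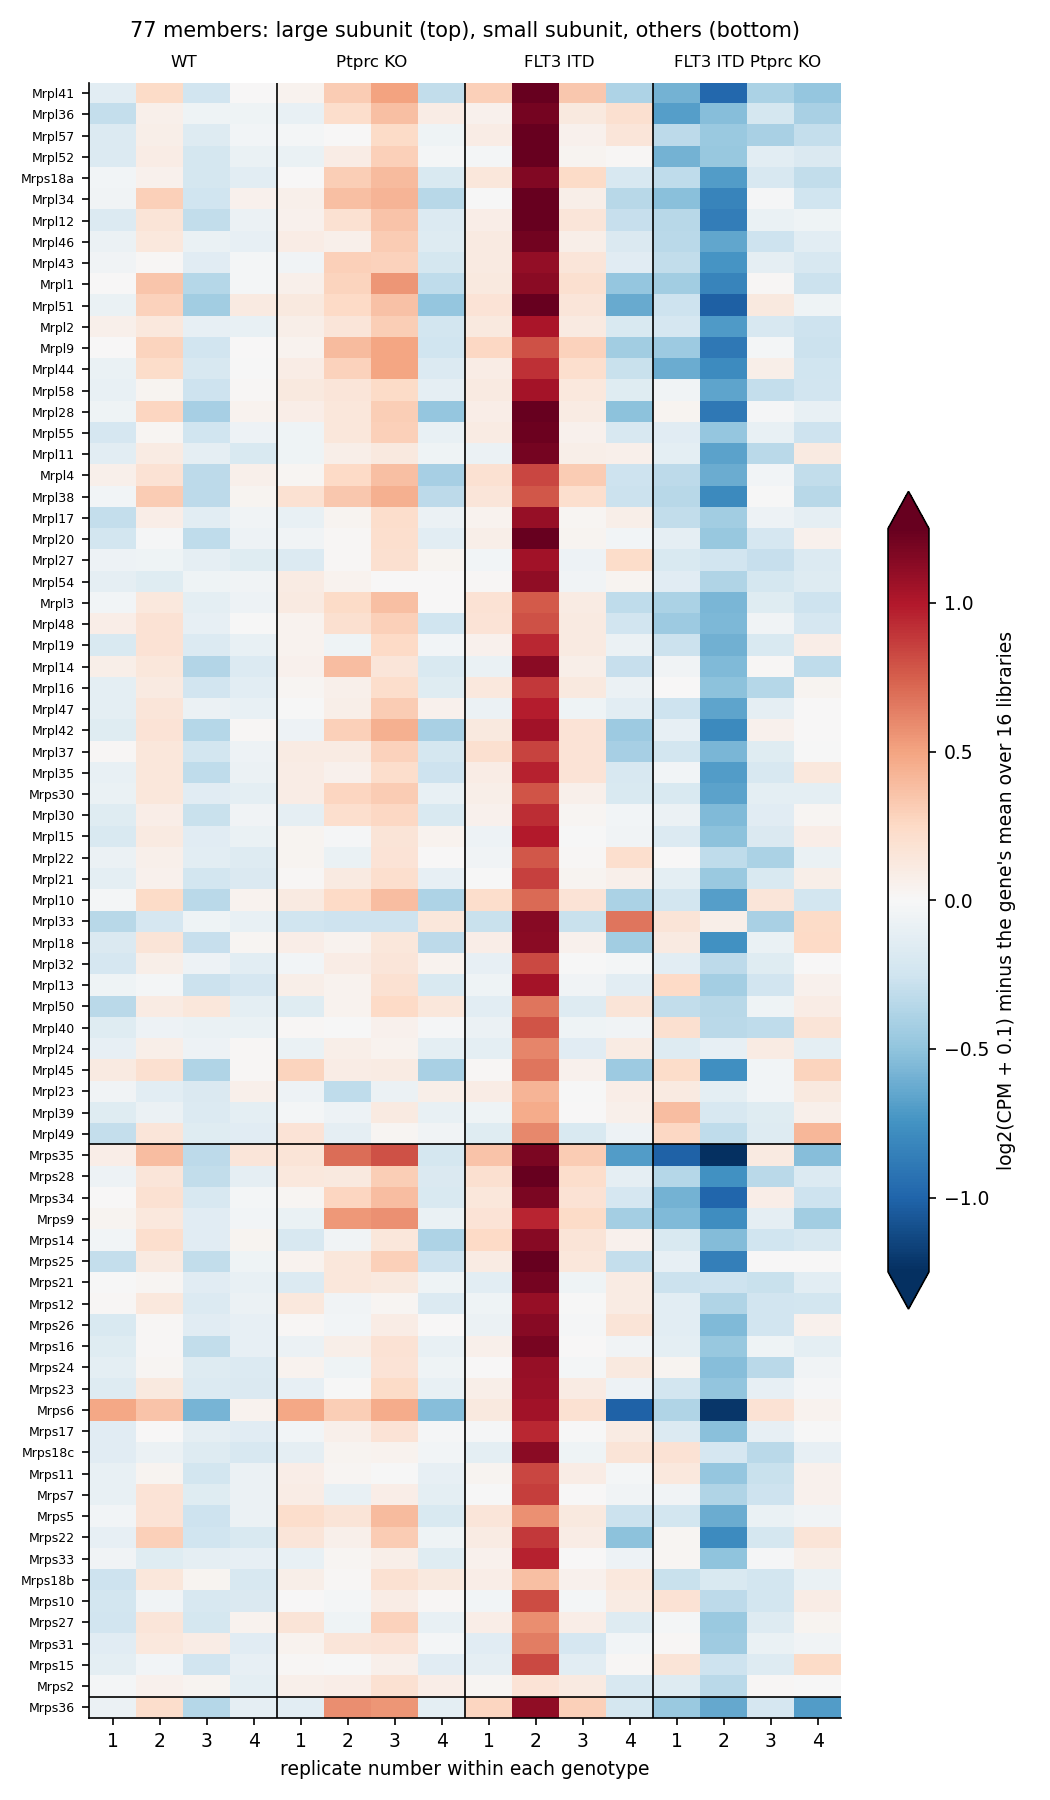
Each of the 77 members tested in each library, as log2(CPM + 0.1) minus the gene's mean over 16 libraries (colour scale, blue below and red above 0). Rows are ordered within subunits by the log2 fold change of the double mutant against FLT3 ITD; FLT3 ITD replicate 2 is red in nearly every row and double mutant replicate 2 blue in most.

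Between FLT3 ITD and WT, which sets the mutant receptor against the normal one with Ptprc present, all 77 members had a positive log2 fold change, with a median of 0.39, against 54.5% of all genes and a median of 0.04. No member passed an adjusted p of 0.05 by edgeR's quasi-likelihood test with Benjamini-Hochberg adjustment over 12093 genes (lowest adjusted p 0.59), nor by DESeq2 or limma on TPM, where 0.0413% of all genes did by edgeR. At an unadjusted p under 0.05, 20 members (26.0%) were higher, against a background of 5.23%. This lean rested on 1 library: without FLT3 ITD replicate 2 the median was 0.06, 61 members were positive and none had an unadjusted p under 0.05. The shares and median of all genes in that refit are not given here, so these values stand without a background. FLT3 ITD replicate 2 is the library whose levels fell with gene length. The members are shorter than the genes tested, with median exon unions of 2394 and 4516 bases. In an alternative fit with the length trend of each library removed, the members' median was still positive. What part length has in this lean was not tested further. On TPM the median was 0.07 with 55 positive, while that of all genes was -0.21.

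Mrpl41, a mitochondria-specific large-subunit protein, had the highest value, 0.76 ± 0.35 (SE). It read 32.6, 42.1, 30.3 and 35.8 CPM in WT and 43.7, 122, 44.9 and 27.2 in FLT3 ITD, so the ranges overlap and 1 library is far above the rest. Mrpl33, Mrpl52, Mrpl57, Mrpl20, Mrps25, Mrps28 and Mrpl12 followed, at 0.56 to 0.62. At the other end were Mrps2, Mrps31, Mrpl45, Mrps6, Mrpl24, Mrpl49, Mrps5 and Mrpl50, at 0.04 to 0.22. Mrpl45 is the protein that anchors the ribosome to the inner membrane. In 3 members, Mrpl39, Mrpl54 and Mrps10, every FLT3 ITD library lay above every WT library by CPM, which held for 2.89% of all genes, and in none by TPM, against 0.504% of all genes. Mrps10, a small-subunit protein with a bacterial homologue, had 27.8, 31.6, 28.2 and 28.8 CPM in WT and 31.8, 57.3, 32.0 and 34.9 in FLT3 ITD. The nearest libraries of the 2 groups, WT replicate 2 and FLT3 ITD replicate 1, almost touch.

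For Ptprc KO against WT, the loss of CD45 alone, 75 of 77 members were positive, with a median of 0.13, against 54.9% and 0.02 over all genes. None passed the adjusted threshold by edgeR (lowest adjusted p 1.0), DESeq2 or limma on TPM, against 0.0331% of all genes by edgeR. None had an unadjusted p under 0.05 either, against 0.339% of all genes in the higher direction. The largest values were those of Mrps36, 0.33 ± 0.27, Mrps35, 0.32 ± 0.38, Mrps9, 0.27 ± 0.25, and Mrpl36, 0.24 ± 0.22 (SE), each within about its own error. Mrps18a, Mrpl55, Mrpl3 and Mrps30 followed at 0.21 to 0.23. The lowest were Mrps14 at -0.13, Mrpl23, Mrpl24, Mrps12, Mrps7, Mrpl33, Mrpl45 and, at 0.05, Mrpl48.

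The CPM ranges of Ptprc KO lay above those of WT for Mrpl40, Mrpl54, Mrps10 and Mrps2, 4 members (5.2%) against 0.786% of all genes, and for none by TPM, against 0.256%. Mrpl54, a large-subunit protein, was at 28.4, 27.5, 29.4 and 29.6 CPM in WT and at 32.8, 31.7, 30.6 and 30.8 in Ptprc KO, a tight step of about 1 CPM between the nearest libraries. In Mrps2, the homologue of bacterial S2, the levels were 58.4, 61.7, 61.0 and 54.5 CPM in WT and 62.2, 63.0, 67.9 and 63.1 in Ptprc KO.

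The double mutant against FLT3 ITD, which asks what the loss of Ptprc does on the mutant receptor, gave the median furthest from 0 of the 5 pairs of groups with all libraries, but not without FLT3 ITD replicate 2, when it was -0.23 here and -0.25 against Ptprc KO. All 77 members had a negative log2 fold change, with a median of -0.56, while 48.0% of all genes were negative and their median was 0.03. Nevertheless none passed the adjusted threshold by edgeR (lowest adjusted p 0.1), where 0.00827% of all genes did. At an unadjusted p under 0.05, 51 members (66.2%) were lower, against 13.7% of all genes. DESeq2 called 16 members lower (20.8%), against 5.08% of all genes, and limma on TPM called none. Large-subunit members had a median of -0.57 and small-subunit members -0.51.

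Single libraries moved these values by more than 1.5 times. Without FLT3 ITD replicate 2 the median was -0.23, 8 members were positive, and 19 members (24.7%) were lower at an unadjusted p under 0.05, against 6.37% of all genes. Without FLT3 ITD replicate 4, whose osteoclast markers (mean log2 CPM 8.54) were below the 10.25 to 10.35 of its group, edgeR called 30 members lower (39.0%), against 8.01% of all genes, with a median of -0.69. Without double mutant replicate 3, whose osteoclast markers (9.89) were above the 7.59 to 7.77 of its group, 7 members were called lower (9.1%), against 7.57% of all genes. What part the markers have in these differences was not tested. On TPM the median of the members was -0.28 and that of all genes 0.22, a distance of -0.50 against -0.59 on counts.

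Mrpl41 was lowest at -1.34 ± 0.36 (SE, adjusted p = 0.11 by edgeR). Its double mutant libraries held 23.6, 18.1, 27.03 and 25.5 CPM, each below the 27.2 of FLT3 ITD replicate 4, the lowest of its group, which double mutant replicate 3 almost reaches. Without FLT3 ITD replicate 2 its log2 fold change was -0.71. Mrps35, a mitochondria-specific small-subunit protein, was second at -1.04 ± 0.38 (adjusted p = 0.14). It had 74.2, 131, 72.2 and 35.7 CPM in FLT3 ITD and 28.7, 20.9, 62.5 and 39.9 in the double mutant. Here the groups overlap, since FLT3 ITD replicate 4 is low and double mutant replicate 3 is high, the same libraries whose osteoclast markers go against their group.

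Mrpl36, the homologue of a small zinc-binding bacterial protein, L36, had the lowest adjusted p of the members, shared with Mrpl57. It had 48.6, 108, 51.1 and 54.0 CPM in FLT3 ITD and 29.0, 32.3, 40.3 and 35.4 in the double mutant, which is -0.93 ± 0.22 on the log2 scale (SE, adjusted p = 0.1 by edgeR, 0.0076 by DESeq2). The ranges do not overlap, and TPM gave 138, 242, 143 and 133 against 89.6, 86.9, 122 and 111, also apart. Without FLT3 ITD replicate 2 the log2 fold change was -0.58. Mrpl57, a large-subunit protein known only from mitochondria, had 34.4, 81.3, 33.6 and 36.0 CPM in FLT3 ITD and 25.8, 23.4, 24.4 and 26.3 in the double mutant, at -0.89 ± 0.23 (adjusted p = 0.1). Its double mutant libraries are close together and below all 12 others.

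Mrps36, Mrps28, Mrpl52 and Mrps34 completed the 8 lowest, at -0.95, -0.89, -0.86 and -0.81. Mrps28 is the small-subunit protein named bS1m, and Mrps34 is needed to keep the small subunit stable. Mrpl52, whose ETS match is printed above, had 57.5, 160, 59.97 and 59.0 CPM in FLT3 ITD and 38.7, 42.1, 53.2 and 51.7 in the double mutant. These ranges do not overlap, with 4 CPM between the nearest libraries, replicate 3 of the double mutant and replicate 1 of FLT3 ITD. The members nearest to 0 were Mrpl49 at -0.01, Mrpl39 at -0.09, Mrpl23, Mrpl45, Mrps2, Mrps15, Mrpl24 and, at -0.23, Mrps31.

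In all, the CPM ranges of the double mutant lay below those of FLT3 ITD for 14 members (18.2%), against 3.52% of all genes. They are Mrpl2, Mrpl17, Mrpl27, Mrpl36, Mrpl41, Mrpl52, Mrpl54, Mrpl57, Mrps12, Mrps14, Mrps16, Mrps18b, Mrps21 and Mrps28. By TPM, 2 members, Mrpl36 and Mrpl57, had ranges apart, against 0.777% of all genes.

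**Figure D3:**
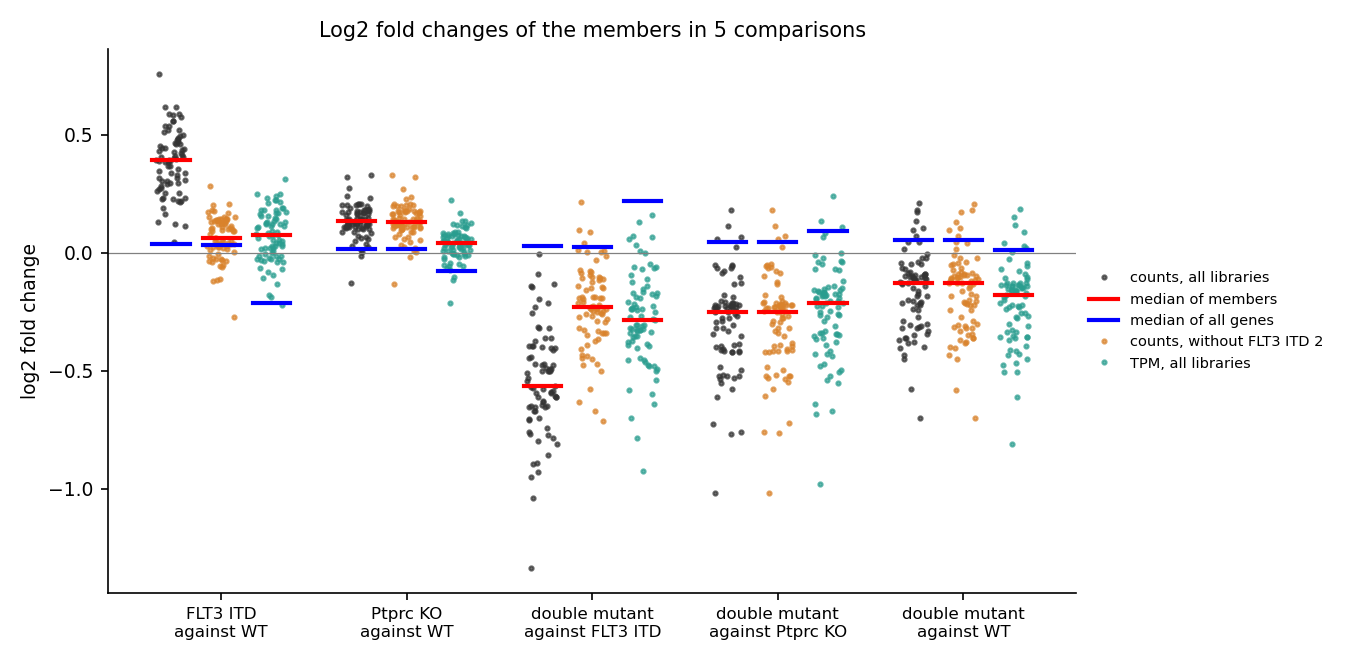
Log2 fold changes of the members in 5 comparisons (1 point a gene) from counts with all libraries, counts without FLT3 ITD replicate 2, and TPM; red lines are medians of the members and blue lines medians of all genes tested. The median for FLT3 ITD against WT drops from 0.39 to 0.06 without that library, and for the double mutant against FLT3 ITD the members stay below all genes in each of the 3.

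**Figure D4:**
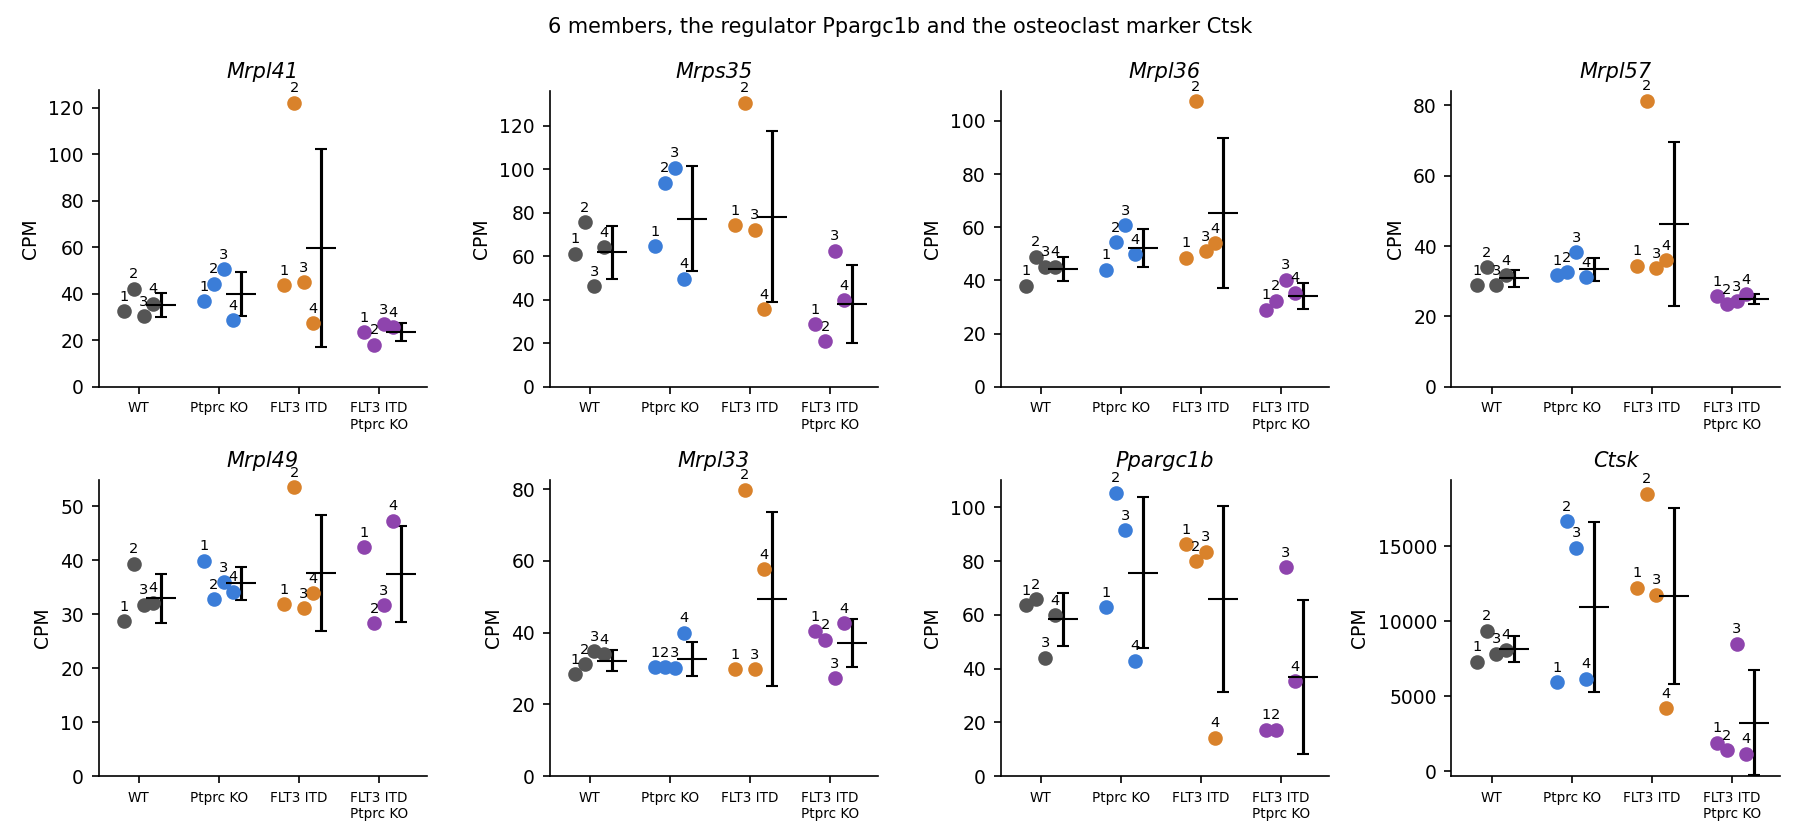
CPM of 6 members, of Ppargc1b and of Ctsk in each library by genotype, with replicate numbers and group mean and SD of 4 libraries. Mrpl57 is lower in all 4 double mutant libraries than in any library of the other genotypes. Mrpl36 is lower there than in any FLT3 ITD or Ptprc KO library but overlaps WT. Mrps35, Ppargc1b and Ctsk are each low in FLT3 ITD replicate 4 and high in double mutant replicate 3 within their groups.

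The double mutant against Ptprc KO, the effect of FLT3 ITD where Ptprc is deleted, gave 72 of 77 members negative and a median of -0.25, against 45.6% and 0.04 over all genes. None passed the adjusted threshold by edgeR (lowest adjusted p 0.23), DESeq2 or limma on TPM, against 0.091% of all genes by edgeR, and 12 (15.6%) were lower at an unadjusted p under 0.05, against 9.07%. FLT3 ITD replicate 2 is in neither group but enters the spread that all groups share in the fit, and without it 35 members (45.5%) were lower at that p, against 11.0% of all genes. Without double mutant replicate 2 the median was -0.17, with 11 members positive. The 8 lowest were Mrps35, Mrpl41, Mrps36, Mrps9, Mrpl36, Mrpl9, Mrpl44 and Mrpl34, at -1.02 to -0.54. The 8 highest were Mrpl33, Mrpl23, Mrpl49, Mrpl39, Mrps15, Mrpl24, Mrps33 and Mrpl45, at -0.06 to 0.18.

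Mrps35 had 64.6, 93.7, 101 and 49.7 CPM in Ptprc KO, which is -1.02 ± 0.38 on the log2 scale (SE, adjusted p = 0.25). Double mutant replicate 3, at 62.5 CPM, overlaps that range, and without it Mrps35 was the only member called, against 4.78% of all genes, at -1.37 (adjusted p = 0.05, just under the threshold before rounding). Mrps9, the homologue of bacterial S9, had 44.3, 68.5, 69.9 and 44.3 CPM in Ptprc KO and 31.9, 27.4, 43.4 and 34.6 in the double mutant, at -0.72 ± 0.25 (adjusted p = 0.23). The groups are apart by less than 1 CPM, and Ptprc KO falls into a high and a low pair.

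Members with CPM ranges below those of Ptprc KO were Mrpl3, Mrpl36, Mrpl41, Mrpl52, Mrpl54, Mrpl57, Mrps18a, Mrps18b, Mrps2, Mrps30, Mrps36 and Mrps9. These are 12 (15.6%), against 2.84% of all genes. By TPM there were 4, Mrpl3, Mrpl36, Mrpl57 and Mrps36, against 2.17%. Mrps36, the dehydrogenase component, had 6.56, 10.8, 10.6 and 6.61 CPM in Ptprc KO and 5.18, 4.57, 6.22 and 4.38 in the double mutant, at -0.76 ± 0.27 (SE, adjusted p = 0.24). It is low in every library and its groups nearly touch.

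Set against WT, the double mutant had 67 of 77 members negative, with a median of -0.13, against 43.7% of all genes and a median of 0.05. None passed the adjusted threshold by edgeR (lowest adjusted p 0.6), DESeq2 or limma on TPM, where 0.108% of all genes did by edgeR, and none was lower at an unadjusted p under 0.05, against 3.69% of all genes. Without FLT3 ITD replicate 2, which is in neither group, 10 members (13.0%) were lower at that p, against 4.52% of all genes. Without double mutant replicate 2 the median was -0.05. Mrps35 at -0.70 ± 0.38 (SE), Mrpl41 at -0.58 ± 0.35, Mrps9, Mrps36, Mrpl34, Mrpl9, Mrps34 and Mrps6 were the lowest. Mrpl33, at 0.21 ± 0.27, Mrpl49, Mrpl39, Mrps15, Mrps10, Mrpl23, Mrpl13 and Mrpl40 were the highest. Ranges were apart, and lower, for 7 members (9.1%), against 2.56% of all genes: Mrpl2, Mrpl3, Mrpl27, Mrpl41, Mrpl46, Mrpl57 and Mrps14. By TPM this held for 2, Mrpl2 and Mrpl57, against 2.61% of all genes. Mrpl57 had 28.8, 33.9, 28.9 and 31.7 CPM in WT.

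The interaction asks whether the 2 changes together differ from the sum of each alone on the log2 scale. All 77 members were negative, with a median of -0.67, against 48.8% of all genes and a median of 0.02. It uses the same libraries as the comparisons above and is not independent of them. No member passed by edgeR (lowest adjusted p 0.25), where 0.00827% of all genes did, nor by limma on TPM, and 39 (50.6%) were lower at an unadjusted p under 0.05, against 10.1% of all genes. DESeq2 called 2 members, Mrpl36 at -1.205 (adjusted p = 0.042) and Mrps18b at -0.56 (adjusted p = 0.047), against 0.901% of all genes. Without FLT3 ITD replicate 2 the median was -0.35 and 19 members (24.7%) had an unadjusted p under 0.05, against 6.1%. Mrpl41 at -1.52 ± 0.50 (SE), Mrps35 at -1.36, Mrps36 at -1.28 and Mrpl36 at -1.17 ± 0.32 were the lowest, followed by Mrps28, Mrps9, Mrps18a and Mrpl52. Mrpl23, Mrpl49, Mrpl45, Mrpl39, Mrpl24, Mrps2, Mrps15 and Mrps31 lay nearest to 0, at -0.33 to -0.12.

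A few members departed from the rest. After the mean of all members in each library was subtracted, the SD over 16 libraries was 0.15 for the median member, and it was highest for Mrps35 (0.45), Mrps6 (0.40), Mrpl33 (0.40) and Mrpl41 (0.32). Mrps6, the homologue of bacterial S6, had 49.6, 45.3, 23.6 and 36.6 CPM in WT, 49.6, 43.9, 48.9 and 24.4 in Ptprc KO, 38.5, 73.3, 40.5 and 17.5 in FLT3 ITD, and 27.3, 15.2, 40.2 and 36.5 in the double mutant. Its lowest library in each group is the one with the highest macrophage markers of that group: these marker means were 8.89, 8.85, 9.18 and 9.51 log2 CPM, in WT replicate 3, Ptprc KO replicate 4, FLT3 ITD replicate 4 and double mutant replicate 2. Mrps6 shares 10.4% of its exon bases, on the same strand, with Slc5a3. The counts of Slc5a3 were lowest in each group in the same libraries, at 506, 484, 174 and 392. The part of those markers and of the shared exons was not tested.

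Mrpl33, the homologue of bacterial L33, differed from Mrps6 in its pattern. It had 28.4, 31.2, 34.9 and 34.0 CPM in WT, 30.4, 30.3, 30.3 and 39.9 in Ptprc KO, 29.8, 79.9, 29.9 and 57.8 in FLT3 ITD, and 40.4, 38.0, 27.4 and 42.6 in the double mutant. WT replicate 3, Ptprc KO replicate 4 and FLT3 ITD replicate 4, low in Mrps6, were high in Mrpl33 within their groups, with replicate 2 higher still in FLT3 ITD. Double mutant replicate 2, also low in Mrps6, had 38.0 CPM of Mrpl33, below replicates 1 and 4 of its group. Mrpl49, a mitochondria-specific large-subunit protein, had ranges that overlap between these genotypes, with 28.7, 39.4, 31.7 and 32.1 CPM in WT, 31.9, 53.6, 31.1 and 33.9 in FLT3 ITD, and 42.4, 28.3, 31.7 and 47.3 in the double mutant. Mrps2 varied least of all members, with an SD of 0.14 over 16 libraries on the log2 CPM scale.

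The divergent partners had medians nearer to 0 than the members beside them, a difference that was not tested. For the double mutant against FLT3 ITD, 29 partners that are not members themselves had a median of -0.02, and the members beside them -0.49. For FLT3 ITD against WT the medians were -0.06 and 0.39, for the double mutant against Ptprc KO -0.03 and -0.30, and for the interaction -0.05 and -0.62. The partners have longer exon unions (median 4995 bases against 2011) than the members beside them, and the part of length was not tested. The 3 pairs closest to each other against FLT3 ITD were Mrpl2 and the kinesin light chain gene Klc4 (-0.67 and -0.67), Mrpl32 and the proteasome gene Psma2 (-0.38 and -0.37), and Mrpl40 and the histone chaperone gene Hira (-0.26 and -0.26). The 3 furthest apart were Mrpl57 and the kinetochore gene Ska3 (-0.89 and 1.102), Mrpl51 and the condensin gene Ncapd2 (-0.70 and 1.29), and Mrpl27 and the nuclease gene Eme1 (-0.59 and 1.35). Both sets were chosen after their values were seen. Proliferation markers had positive log2 fold changes against FLT3 ITD, all 10 of them, at a median of 0.94 with none past the adjusted threshold. By library their sums were 3090, 849, 1040 and 2470 CPM in double mutant replicates 1 to 4. FLT3 ITD replicates 1 to 4 had 1000, 804, 1040 and 468, so the groups overlap. Of the partners in this comparison none passed the adjusted threshold either. Wdfy1, whose exons overlap those of Mrpl44 by 126 bases on the opposite strand, was the partner that rose in FLT3 ITD against WT, by 2.03 ± 0.28 (SE, adjusted p = 0.021 by edgeR), while Mrpl44 was at 0.30.

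**Figure D5:**
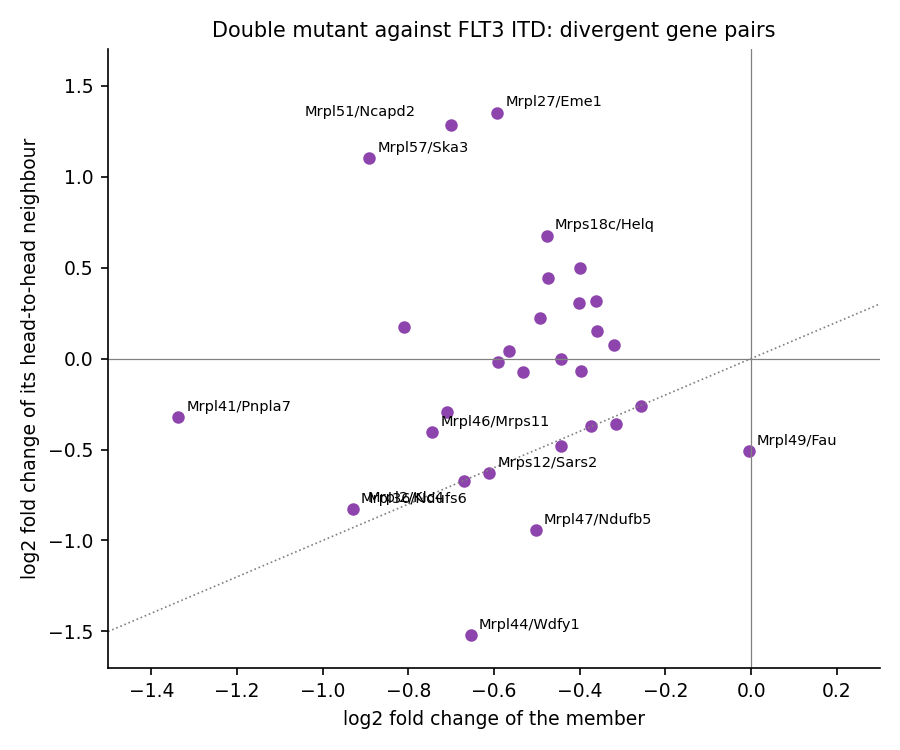
Log2 fold changes of members (horizontal) and of the divergent gene beside each (vertical) for the double mutant against FLT3 ITD, 1 point a pair, with Mrpl46 and Mrps11 as 1 pair; the dotted line marks equal values. The members lie at or left of 0 while their partners spread on both sides of it.

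None of the other listed genes of mitochondrial translation and mitochondrial DNA upkeep passed the adjusted threshold by edgeR in any of the 6 comparisons. For the double mutant against FLT3 ITD, the 5 ribosomal proteins without an Mrp name (Dap3, Ptcd3, Chchd1, Aurkaip1 and Gadd45gip1) were all negative, with a median of -0.44, from Ptcd3 at -0.22 to Aurkaip1 at -0.52. Of 25 assembly factors 22 were negative, with a median of -0.20, from Dhx30 at 0.13 to Malsu1, which attaches to the large subunit as it matures, at -0.74. The 16 translation factors had a median of -0.34, with 14 negative, from Mtrfr at 0.08 to Tsfm, the exchange factor of the elongation factor Tu, at -0.70. The 20 genes of aminoacyl-tRNA synthesis had a median of -0.27, with Gatc at 0.26 and Fars2 at -0.71, and the 11 genes that copy and transcribe mitochondrial DNA a median of -0.21, with Mgme1 at 0.37 and Tefm at -0.35. The median of all genes was 0.03. Of 13 listed messenger RNAs encoded in mitochondrial DNA, none was found by symbol in the deposited tables, so they could not be analysed.

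Against Ptprc KO the same lists had medians of -0.16, -0.12, -0.28, -0.32 and 0.06 in that order. For FLT3 ITD against WT they had 0.42, 0.17, 0.11, 0.04 and 0.13, and for Ptprc KO against WT 0.13, 0.07, 0.07, 0.14 and 0.02. Extremes against Ptprc KO were Mettl15, which modifies the RNA of the small subunit, at -0.80, and Wars2, the tryptophanyl-tRNA synthetase, at -0.85.

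Regulators of mitochondrial biogenesis differed among themselves. Of 9 listed, 8 passed the filter on low counts, and 6 of these were higher in the double mutant than in FLT3 ITD, with a median of 0.26 and none past the adjusted threshold. Ppargc1b was the lowest, at -0.84 ± 0.54 (SE, adjusted p = 0.31). It had 63.6, 65.7, 44.0 and 59.9 CPM in WT, 62.9, 105, 91.4 and 42.9 in Ptprc KO, 86.3, 80.0, 83.5 and 14.2 in FLT3 ITD, and 17.2, 17.3, 77.6 and 35.2 in the double mutant. The groups overlap, and FLT3 ITD replicate 4 and double mutant replicate 3 are again the ones that stand against their group. FLT3 ITD replicate 2, the highest library for the members, had 80.0 CPM of Ppargc1b, close to replicates 1 and 3 of its group. Esrra, the receptor that PGC-1beta coactivates, was at -0.50 ± 0.25 (adjusted p = 0.22) and had its highest level of the 16 libraries, 152 CPM, in FLT3 ITD replicate 2. By contrast, Nrf1, Gabpa, Yy1 and Pprc1 had their lowest levels of the 16 in that library, at 23.7, 52.8, 80.3 and 38.0 CPM. Levels in that library fell with gene length, and the part of length in these values was not tested. Myc, a general growth regulator, was highest at 0.58 ± 0.44 (adjusted p = 0.40). Osteoclast markers were negative for all 10 genes in this comparison, with a median of -1.46, from Nfatc1 at -0.23 to Calcr at -2.30, and macrophage markers were positive for 4 of 6, with a median of 0.64. None of these 16 passed the adjusted threshold, and their part in the members' values was not tested. Of other cell types, T cell markers summed to at most 0.129 CPM and B cell markers to at most 2.8. Neutrophil markers reached 180.0 CPM and megakaryocyte markers 316, both in Ptprc KO replicate 4, while the rest of its group had at most 48.9 and 18.9. The 2 sums were 91.3 and 167 in WT replicate 3, 96.0 and 230 in FLT3 ITD replicate 4, and 11.3 and 168 in double mutant replicate 2.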

How the data were processed

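The authors deposited raw counts per gene, not normalized, and a second table of TPM. The submitters' processing notes name GRCm38.p6, featureCounts 2.0.3, STAR 2.7.6a, cutadapt 4.2, bcl2fastq 2.20.0.422 and UMI-tools 1.1.1, without settings. Deposited gene lengths equal the exon unions of GENCODE vM21 for 78 of 78 members. The main test was edgeR 4.0.16 in R 4.3.3 on these counts, with filterByExpr (12093 genes kept), TMM factors, and 1 robust quasi-likelihood model of the 4 genotypes over all 16 libraries. Tests were two-sided, and Benjamini-Hochberg adjusted p-values were called below 0.05. CPM of single genes of the lists were scaled by TMM, those of Ptprc, Flt3 and marker sums by plain library totals, and log2 CPM had a prior count of 2 added. The standard error is the size of the log2 fold change over the root of F. DESeq2 1.42.0 and limma 3.58.1 on log2(TPM + 1), keeping genes of mean TPM 1 or more, were alternatives. Precision is limited by 4 libraries a group. Named in each comparison were the 8 highest and 8 lowest members, any past the threshold, the 10 with the highest TPM, the extremes of each list, and partners of named members. The gene family, the lists and the tests were chosen with earlier results of these data known, and membership in the family follows from the symbol. The model was also run on simulated counts with the same dispersion for all genes. These had no outlying library and no length trend, so that run does not cover these features of the data.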

Additional observations from a re-analysis of the deposited data

Results flagged for a closer look

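In groups of 4 libraries, a value was singled out where its gap to the nearest library, divided by the range of the group, exceeded Dixon's 95% critical value, which chance alone does for about 1 group in 20. Of 128 groups checked, 20 had such a value, and 16 of these were FLT3 ITD replicate 2. The groups are not independent, since the members moved together from library to library, so these counts cannot be set against that rate. In that library the mean log2 CPM was 6.44 for ribosomal proteins without an Mrp name and 4.54 for assembly factors. The members for which it stood alone were Mrpl12 at 342 CPM, Mrpl34 at 86.8, Mrpl36 at 108, Mrpl52 at 160, Mrps28 at 56.5, Mrpl57 at 81.3, Mrps14 at 98.8, Mrpl49 at 53.6, Mrpl54 at 66.4, Mrps10 at 57.3, Mrpl40 at 63.7, Mrpl46 at 62.9, Mrps11 at 36.3 and Mrps12 at 45.8. The others were WT replicate 2, with 4.18 for assembly factors and 29.8 CPM for Mrpl46, Ptprc KO replicate 3, with 67.9 CPM for Mrps2, and Ptprc KO replicate 4, with 39.9 CPM for Mrpl33. No cause was tested.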

How the results depend on the processing

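The direction of the members' median held in all 6 comparisons under all alternatives, but the number of genes called did not. Numbers below follow the order FLT3 ITD against WT, Ptprc KO against WT, then the double mutant against FLT3 ITD, Ptprc KO and WT, then the interaction, where the edgeR test on all libraries called 5, 4, 1, 11, 13 and 1 genes. DESeq2 called 60, 11, 984, 332, 117 and 165 genes, with 16 members in the third and 2 in the last. A mean count of at least 50 gave 1, 2, 3, 5 and 0 genes, leaving out the third, which did not move by over 1.5 times. Using only the groups compared gave 0, 2, 0, 0 and 1 genes in the 5 pairs. With limma on log2(TPM + 1) the counts that moved were 2, 2, 8 and 0 (the second, the third, the fifth and the last), with a pseudocount of 0.1 they were 1, 2, 2, 4 and 0 (all but the fourth), and without a filter 3, 7, 22, 8 and 2 (all but the second). Removing the length trend gave 2 and 3 in the first and the third. Summing FLT3 ITD replicates 1 and 3 gave 1, 8 and 0 in the first, the fifth and the last, and leaving out replicate 2 as well, an alternative added after seeing the data, gave 0 in the first and last. The interaction median of -0.67 was -0.31 by limma on TPM, -0.32 with a pseudocount of 0.1, -0.31 without a filter and -0.34 with replicates 1 and 3 summed and 2 left out. Members with ranges apart numbered 0, 0, 2, 4 and 2 by TPM, also added after seeing the data. The cause of these differences was not tested.

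Leaving out 1 library at a time gave 0 to 4, 2 to 7, 1 to 1798, 2 to 786, 1 to 83 and 0 to 56 genes, with 0 to 30 members in the third, 0 to 1 in the fourth and 0 elsewhere. The members' medians ran from 0.06 to 0.51, 0.07 to 0.20, -0.69 to -0.23, -0.34 to -0.17, -0.23 to -0.05 and -0.78 to -0.35. Summed TPM over WT ran from 0.978 to 1.087 for Ptprc KO, 0.933 to 1.22 for FLT3 ITD and 0.813 to 0.948 for the double mutant. Of 2672 values of named members under alternatives, 175 had the opposite sign, none of them past the threshold, and 22 were newly past it.

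With the replicate number as a block (replicate block), 0, 1, 1, 47, 9 and 0 genes and no member were called, and the members' medians were 0.35, 0.13, -0.51, -0.24, -0.12 and -0.61. The numbers do not pair the libraries: correlations of same-numbered libraries ranged from -0.633 to 0.851.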
